A study of Mus musculus with 6 samples.

Results

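The genes described here are 10 members of fibroblast growth factor (FGF) signalling: the ligands Fgf1, Fgf2, Fgf7 and Fgf10, the receptors Fgfr1, Fgfr2 and Fgfr3, and the transcription factors Etv1, Etv4 and Etv5. They were taken by gene symbol from 19505 genes measured on 6 Affymetrix arrays, and each of the 10 had exactly 1 probe set. The RNA came from embryonic mouse salivary glands (stage T13 in the labels) kept in culture over 72 hours, either untreated (controls 1 to 3) or with TGF-β1 (TGF-β1 1 to 3). The strain, the type of salivary gland, the dose of TGF-β1 and whether glands were pooled are not stated. No label ties the replicates to distinct cultures or animals, and each p-value therefore reflects just the scatter among these 6 samples, possibly technical.

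FGF ligands bind receptor tyrosine kinases together with heparan sulfate and start the Ras and MAP kinase cascade. In the embryonic salivary gland Fgf10 and Fgf7 are made by the mesenchyme and act on the epithelial form of the receptor Fgfr2, which drives growth and branching of the epithelial buds, and mice without Fgf10 or that receptor form lack salivary glands. Etv1, Etv4 and Etv5 form the PEA3 group of ETS transcription factors, and Etv4 and Etv5 are widely used as readouts of FGF signalling.

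In the data, Fgf10 and Fgf7 were lower with TGF-β1 than in controls 1 and 2, and Fgf1 and Etv1 were higher on average. Etv4, Etv5, Fgf2 and the receptors were called in none of the 3 fits described below. Without control 3, Etv5, Fgfr1 and Fgf7 differed by -0.75, -0.72 and -1.05 in an unweighted limma fit (adjusted p = 0.867, 0.793 and 0.322). With TGF-β1 3 also left out, these differences were -0.25, -0.34 and -1.20. None of the 10 genes passed in the limma fit of all 6 arrays, in which control 3 counts as much as the others. Upstream sequence is shown here for the ligands Fgf10 and Fgf7, which were lower together, and for Etv1, which was higher. RefSeq start sites on GRCm38.p6 were found for 7 of the 10 genes, with Fgf1, Fgfr1 and Etv4 not among them. Each sequence is the 250 bases before the start site, printed 5′ to 3′ on the gene's own strand, which is the plus strand for all 3. The windows are chr13:118714449-118714698 for Fgf10, chr2:126034408-126034657 for Fgf7 and chr12:38779832-38780081 for Etv1. Capitals mark matches, on either strand, to CAGAC (the core of the CAGA element bound by Smad proteins), AGGAAG (the core of the PEA3 site bound by ETS factors), TATAAA (the TATA box) and CCAAT.
Fgf10: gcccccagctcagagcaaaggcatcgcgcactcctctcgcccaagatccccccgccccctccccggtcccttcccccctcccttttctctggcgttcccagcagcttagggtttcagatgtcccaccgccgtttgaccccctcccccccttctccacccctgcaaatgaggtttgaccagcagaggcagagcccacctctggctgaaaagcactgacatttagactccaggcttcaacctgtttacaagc
Fgf7: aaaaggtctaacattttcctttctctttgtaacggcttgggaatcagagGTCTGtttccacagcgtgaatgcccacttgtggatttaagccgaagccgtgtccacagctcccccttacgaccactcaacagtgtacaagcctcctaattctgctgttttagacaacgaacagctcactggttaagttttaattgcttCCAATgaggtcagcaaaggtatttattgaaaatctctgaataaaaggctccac
Etv1: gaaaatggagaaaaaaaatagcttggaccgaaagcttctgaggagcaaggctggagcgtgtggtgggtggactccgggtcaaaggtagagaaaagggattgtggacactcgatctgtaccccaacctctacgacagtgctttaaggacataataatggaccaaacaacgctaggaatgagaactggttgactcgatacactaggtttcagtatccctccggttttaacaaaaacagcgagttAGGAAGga

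The 2 ligand windows differed in composition, with 61.2% G and C for Fgf10 and 43.6% for Fgf7, against a median of 52.4% over the 32851 windows of this length in the table. The Fgf10 window held none of the 4 motifs. The Fgf7 window held CAGAC on the minus strand 201 bases before the start site and CCAAT at 53 bases. The Etv1 window held AGGAAG 8 bases before the start site. Over all windows, 42.2% held CAGAC, 29.5% AGGAAG, 12.4% TATAAA and 33.8% CCAAT, so each of these matches is common. A second start site of Etv1, not printed, had a TATAAA match on the minus strand.

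Control 3 stood apart from the other arrays and has to be set beside every result. Its correlation with the others over all genes was 0.55 to 0.60, against 0.95 to 0.99 among the rest, its interquartile range was 2.02 against 3.13 to 3.21, and 12 measured genes that every cell uses averaged 7.38 in it against 10.66 to 10.94 elsewhere. TGF-β1 3 was the next most distant, at 0.95 with each of the others apart from control 3. Gland epithelium markers averaged 9.63 to 10.44 over 15 genes in 5 arrays and 7.32 in control 3, and 11 mesenchyme markers averaged 8.73 to 9.40 and 7.22. Markers of endothelium, with a mean of 5.43 to 6.54, were low beside these, and the array medians were 6.77 to 6.83. Those of skeletal muscle averaged 5.68 to 5.88 in 5 arrays. In control 3 the muscle markers averaged 6.84, level with that array's median of 6.83, so these tissue markers were less separated there. Differences are therefore given from 3 limma fits, each with Benjamini-Hochberg adjustment over all 19505 genes: all 6 arrays unweighted, all 6 with array weights (which estimate each array's reliability and gave control 3 a weight of 0.0338, TGF-β1 3 0.398 and the others 1.65 to 4.52), and only 4 arrays, leaving out control 3 and TGF-β1 3 (the 4-array fit). A gene is called at an adjusted p under 0.05, and a difference is TGF-β1 minus control on the log2 scale.

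**Figure D1:**
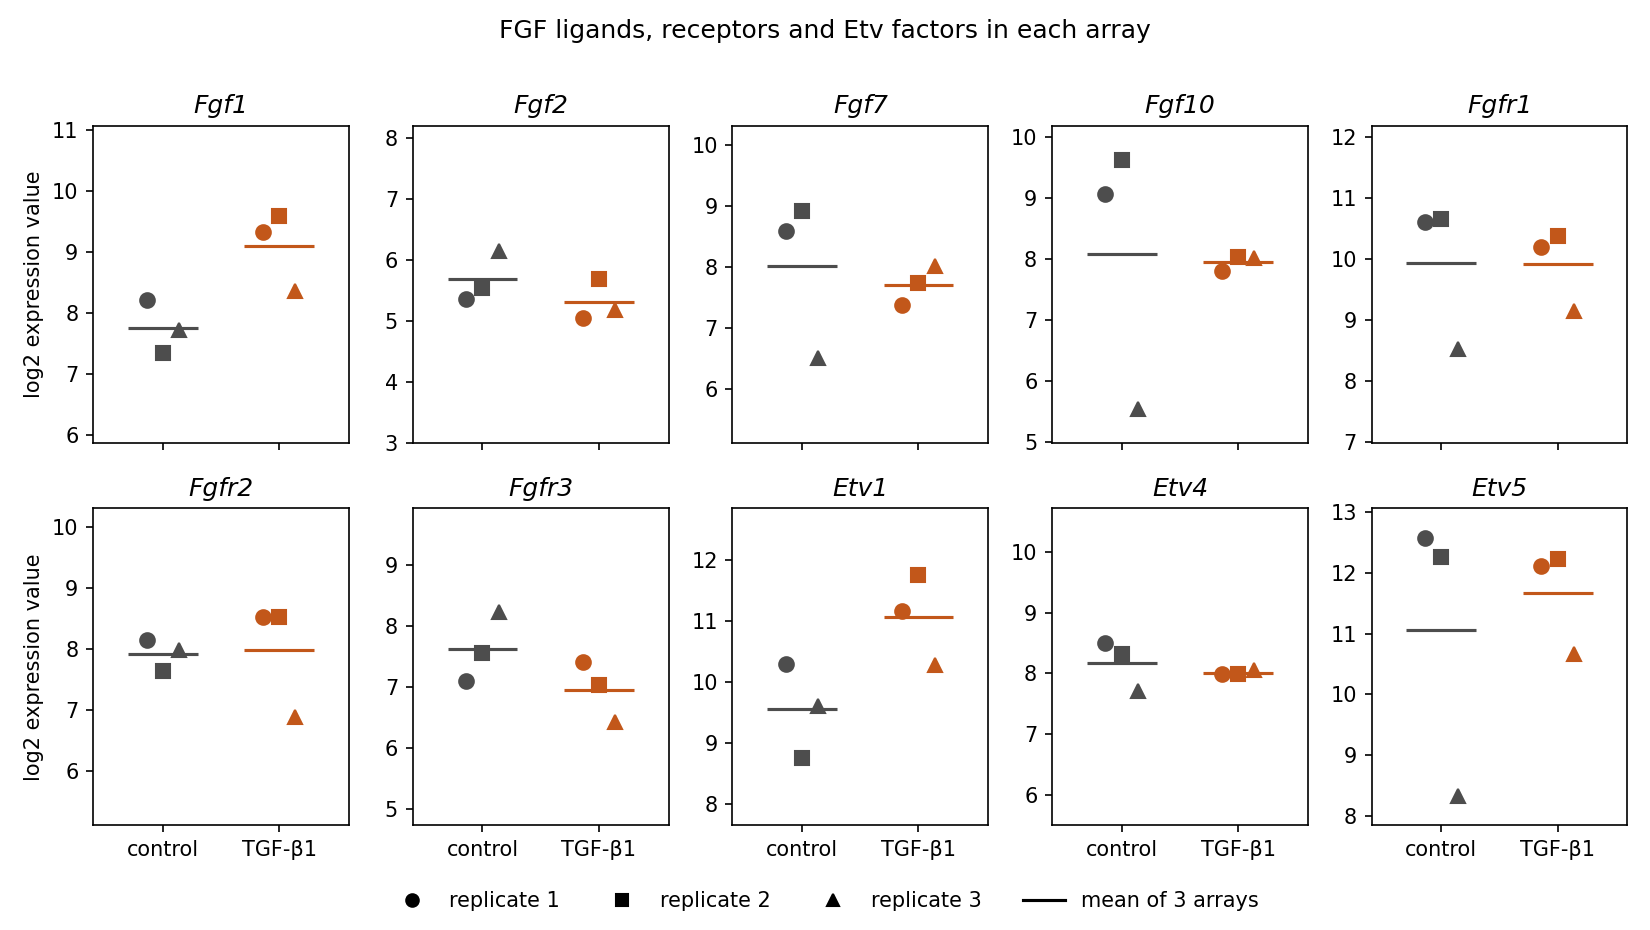
Log2 expression value (vertical axes, all of the same height in log2 units) of the 10 genes in each array, by group, with symbols for the replicates and lines for the mean of 3 arrays. Control 3 (triangle) lies far below controls 1 and 2 for Fgf10, Fgf7, Fgfr1 and Etv5, and Fgf1 is the gene whose 2 groups do not overlap.

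Of the ligands made by the mesenchyme, Fgf10 stood at 9.07, 9.63 and 5.54 in controls 1, 2 and 3 and at 7.81, 8.04 and 8.02 in the TGF-β1 arrays. The 3 TGF-β1 values lay within 0.23 of each other, below controls 1 and 2 and above control 3, so that the groups overlapped through control 3 alone. In control 3 the value was also under that array's lower quartile of 5.84. The unweighted difference over all 6 arrays was -0.13 ± 1.00 (SE), with a 95% interval of -2.48 to 2.22 and an adjusted p of 0.957. With array weights Fgf10 fell by 1.57 ± 0.21 (adjusted p = 0.0016), and in the 4-array fit it fell by 1.43 ± 0.21 (adjusted p = 0.0274). Without control 3 alone the unweighted difference was -1.40 ± 0.22, with an adjusted p of 0.211.

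Fgf7, the keratinocyte growth factor and the closest relative of Fgf10 in function, ran alongside it. It was at 8.59, 8.92 and 6.50 in the controls and at 7.38, 7.73 and 8.01 in the TGF-β1 arrays. Again all TGF-β1 values lay below controls 1 and 2 and above control 3. The unweighted difference was -0.30 ± 0.65 (adjusted p = 0.838), and without control 3 it was -1.05 ± 0.24 (adjusted p = 0.322). Fgf7 fell by 1.29 ± 0.18 with array weights (adjusted p = 0.0020) and by 1.20 ± 0.19 in the 4-array fit (adjusted p = 0.0299).

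Markers of the mesenchyme were read beside these ligands. Over 11 measured mesenchyme markers, 0 rose and 2 fell with array weights (Prrx1 and Twist1), and 0 were called in the 4-array fit. With array weights 3.45% of all genes were called higher and 3.44% lower. Unweighted, Prrx1 and Twist1 differed by 0.76 and 0.03, neither called. Not every marker was lower with array weights, as Col1a2 and Thy1 differed by 0.00 and 0.05. The mean of the 11 markers was 8.98, 9.40 and 7.22 in the controls and 8.86, 8.73 and 9.19 in the TGF-β1 arrays, which overlaps over all 6 arrays and without control 3. In the 4 arrays without the third replicates it does not overlap, with the TGF-β1 arrays lower, and the median difference of the list was -0.44 with array weights and -0.42 in the 4-array fit, so these markers were lower beside the ligands there. Relative to that mean, Fgf10 was at 0.08 and 0.23 in controls 1 and 2, at -1.67 in control 3, and at -1.05, -0.69 and -1.17 in the TGF-β1 arrays. Fgf7 was at -0.39, -0.49 and -0.72 in the controls and at -1.48, -0.999 and -1.18 in the TGF-β1 arrays, which places all 3 TGF-β1 arrays below all 3 controls. Set against the mesenchyme mean, the difference from controls 1 and 2 was thus -1.13 for Fgf10 and -0.78 for Fgf7, smaller than without that step, while from all 3 controls it was -0.52 and -0.69, larger than without it (-0.13 and -0.30). The part of mesenchyme content in these results was not tested. In whole glands, fewer cells of a type and less RNA per cell cannot be told apart.

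Fgf1, which can bind all FGF receptors, was higher with TGF-β1 in every array. It stood at 8.22, 7.34 and 7.72 in the controls and at 9.33, 9.59 and 8.36 in the TGF-β1 arrays. The groups did not overlap, though TGF-β1 3 lay only 0.15 above control 1. Control 3 fell between the other controls here, and the difference was alike with it, at 1.34 ± 0.44 (95% interval 0.30 to 2.37, adjusted p = 0.776), and without it, at 1.32 ± 0.43 (adjusted p = 0.521). Fgf1 rose by 1.79 ± 0.24 with array weights (adjusted p = 0.0016) and by 1.68 ± 0.28 in the 4-array fit (adjusted p = 0.0336).

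Fgf2, or basic FGF, had low values throughout, below the median of each of the 6 arrays and below the lower quartile in 2. It was at 5.36, 5.53 and 6.15 in the controls and at 5.05, 5.68 and 5.18 in the TGF-β1 arrays, and the groups overlapped. Its differences in the 3 fits were -0.38, -0.23 and -0.09, none called, and the array-weighted 95% interval ran from -0.64 to 0.18.

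The receptors were not called in any of the 3 fits. With array weights and a filter on dim genes Fgfr1, Fgfr2 and Etv4 were called, as were 4349 of the 13003 genes kept. Fgfr2, whose epithelial splice form receives Fgf7 and Fgf10 and is not told apart from the mesenchymal form by this probe set, was at 8.14, 7.64 and 7.98 in the controls and at 8.53, 8.52 and 6.88 in the TGF-β1 arrays. TGF-β1 1 and 2 thus lay above all controls and TGF-β1 3 below them. Its difference was 0.05 ± 0.51 unweighted, 0.65 ± 0.23 with array weights (95% interval 0.15 to 1.15, adjusted p = 0.123) and 0.63 ± 0.19 in the 4-array fit (adjusted p = 0.153).

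Fgfr1, the receptor of mesenchymal and many other cells, was at 10.62, 10.65 and 8.52 in the controls and at 10.21, 10.39 and 9.15 in the TGF-β1 arrays. The third replicate was the lowest of each group, and the difference was -0.02 ± 0.66 unweighted and -0.42 ± 0.19 with array weights (adjusted p = 0.226). Fgfr3, which restrains growth of cartilage in the skeleton, was at 7.10, 7.56 and 8.23 in the controls and at 7.41, 7.04 and 6.43 in the TGF-β1 arrays. Here control 3 was the highest array, and the difference moved from -0.67 ± 0.43 unweighted to -0.21 ± 0.19 with array weights (adjusted p = 0.613).

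Of the 3 PEA3 factors, Etv1 was called in 1 of the 3 fits and Etv4 and Etv5 in none. Etv1 was at 10.30, 8.75 and 9.61 in the controls and at 11.17, 11.75 and 10.27 in the TGF-β1 arrays. TGF-β1 1 and 2 lay above all controls and TGF-β1 3 was 0.03 below control 1, while controls 1 and 2 themselves differed by 1.55. The difference was 1.51 ± 0.54 unweighted (95% interval 0.23 to 2.79, adjusted p = 0.776) and 1.54 ± 0.58 without control 3 (adjusted p = 0.607). Etv1 rose by 2.15 ± 0.35 with array weights (adjusted p = 0.0040), which was the widest of the 10 differences in that fit, but was not called in the 4-array fit, at 1.94 ± 0.46 (adjusted p = 0.082), nor with array weights on the 5 arrays without control 3, at 1.79 ± 0.44 (adjusted p = 0.0783).

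Etv5 was at 12.56 and 12.26 in controls 1 and 2, at 8.34 in control 3, and at 12.11, 12.22 and 10.66 in the TGF-β1 arrays. Apart from the third replicate of each group the values spanned 0.46, and the sign of the difference depended on control 3. It was 0.61 ± 1.12 over all 6 arrays (adjusted p = 0.817), -0.75 ± 0.48 without control 3 (adjusted p = 0.867) and -0.26 ± 0.24 with array weights (95% interval -0.78 to 0.27, adjusted p = 0.623).

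Etv4 was at 8.50, 8.31 and 7.71 in the controls and at 7.997, 7.99 and 8.06 in the TGF-β1 arrays. Its 3 TGF-β1 values were the tightest of any member, with an SD of 0.04, and lay between control 2 and control 3. The difference was -0.16 ± 0.33 unweighted, -0.36 ± 0.14 with array weights (adjusted p = 0.154) and -0.41 ± 0.15 in the 4-array fit (adjusted p = 0.219).

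**Figure D2:**
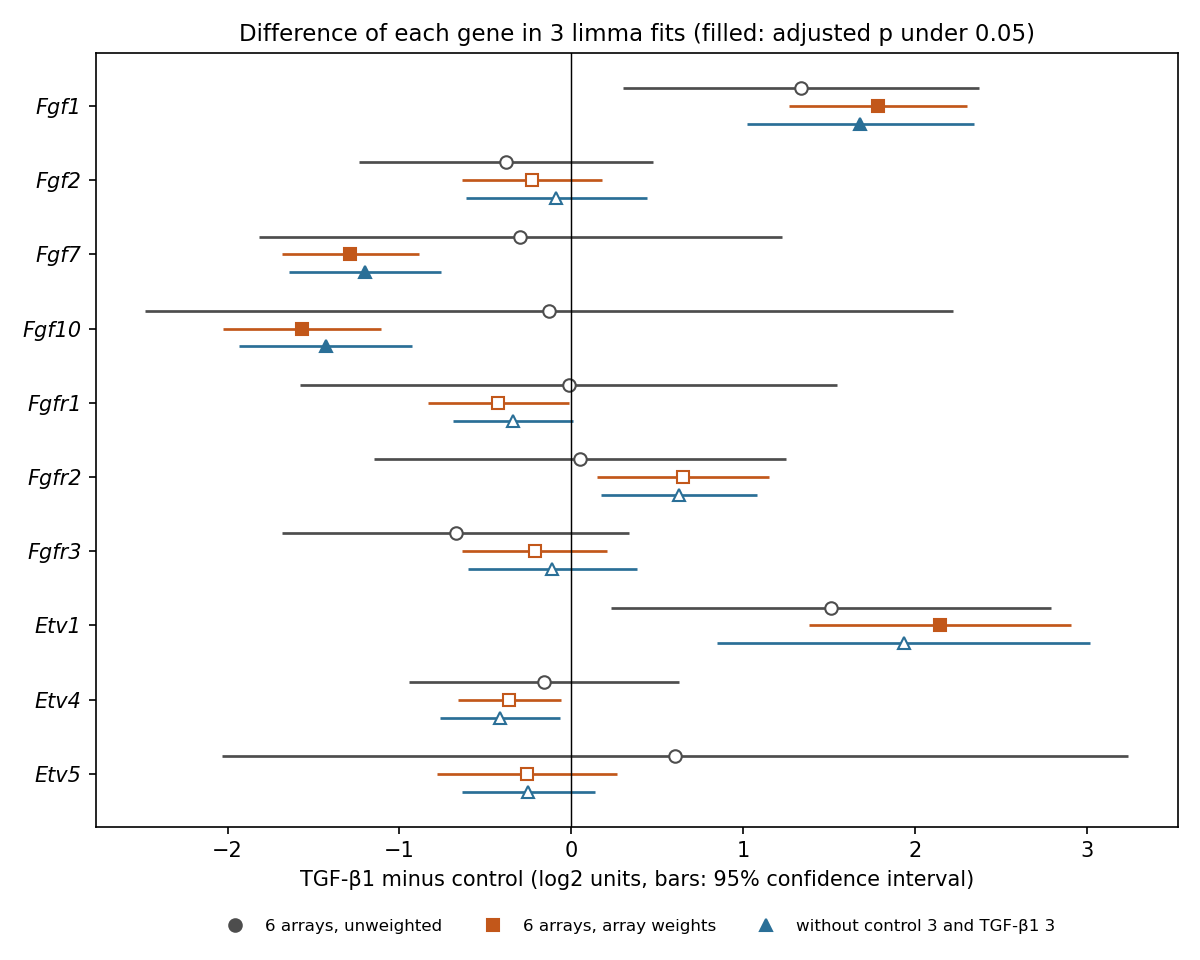
Difference between TGF-β1 and control in log2 units (horizontal axis) for the 10 genes in the 3 limma fits, with 95% confidence intervals as bars and filled symbols for an adjusted p under 0.05. The unweighted intervals of Fgf10 and Etv5 are the widest, and filled symbols appear for Fgf1, Fgf7 and Fgf10 in 2 fits and for Etv1 in 1.

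Counted together, 0 of the 10 genes were called in the unweighted fit of 6 arrays, which called 0% of all genes, and 2 of the 10 (Fgf1 and Etv1) had an unadjusted p under 0.05, as 389 of the 19505 genes did. Without control 3 the unweighted fit also called 0 members and 0 genes, with 5 members and 1487 genes at an unadjusted p under 0.05. With array weights 2 members were called as higher and 2 as lower, where 3.45% of all genes were called higher and 3.44% lower. In the 4-array fit, 1 was called as higher and 2 as lower, where 1.14% of all genes were called higher and 1.45% lower. Groups did not overlap for 1 of the 10 genes over 6 arrays (11.6% of all genes), and for 6 of the 10 without control 3 (25.2% of all genes), namely Fgf1 as higher and Fgf7, Fgf10, Fgfr1, Etv4 and Etv5 as lower.

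The array-weighted calls depended on every array. With array weights re-estimated, 0 of the 10 genes were called without control 1, without control 2, without TGF-β1 1 or without TGF-β1 2, and these fits called 0, 0, 8 and 12 of the 19505 genes, so nearly all calls of the series were lost with those of the 10. Without control 3, Etv1 was lost and the other 3 were called, with 544 genes in all. Without TGF-β1 3 only Fgf1 was called (adjusted p = 0.0304), with 375 genes in all, and control 2 then received a weight of 0.0118. Fgf1 kept a positive difference in each of these 6 fits, between 0.64 and 1.84, as did Etv1, between 0.44 and 2.14. Fgf7 kept a negative difference, between -1.23 and -0.01, while Fgf10 ranged from -1.46 to 0.59 and was positive without control 1 or control 2.

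Whether the paralogs changed unequally was measured within each array, for 4 pairs chosen after their values were seen. The difference of Etv1 over Etv4 was larger with TGF-β1 by 1.67, at 1.80, 0.44 and 1.90 in the controls and 3.17, 3.76 and 2.21 in the TGF-β1 arrays, and these groups did not overlap. An exact two-sided permutation test gave p = 0.1, the smallest possible with 3 arrays against 3, and 0.4 after adjustment over the 4 pairs. For Etv1 over Etv5 the change was 0.90 with control 3 and 2.29 without it, for Fgf1 over Fgf7 1.64 and 2.37, and for Fgf1 over Fgf10 1.47 and 2.71. The exact permutation p was 0.2 to 0.6 for these 3 pairs over 6 arrays, and without control 3 it was 0.1 to 0.2 for all 4. With 0.1 as the smallest p possible in each case, no pair could pass 0.05, and these values stand as a description.

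Beside Fgf1 and Etv1, epithelial markers were read in the same arrays. The counts of called markers here stand beside 3.45% of all genes higher and 3.44% lower with array weights. In the 4-array fit these shares were 1.14% and 1.45%. Of 15 measured gland epithelium markers, 2 rose (Epcam and Cldn3) and 0 fell with array weights, and 1 rose in the 4-array fit (Cldn3). The list went both ways, with array-weighted differences from -0.59 for Krt14 to 1.47 for Cldn3. The mean of the 15 markers was 9.89, 9.63 and 7.32 in the controls and 9.97, 9.80 and 10.44 in the TGF-β1 arrays. Control 1 was thus above control 2 for the epithelial mean, by 0.25, as it was for Fgf1, by 0.88, and for Etv1. Relative to the epithelial mean, Fgf1 was at -1.67, -2.29 and 0.39 in the controls and at -0.65, -0.21 and -2.08 in the TGF-β1 arrays, and Etv1 was at 0.41, -0.88 and 2.29 and at 1.19, 1.95 and -0.17. TGF-β1 1 and 2 lay above controls 1 and 2 on this scale for each gene, and TGF-β1 3 lay between controls 1 and 2. Control 3 lay above every other array on this scale for each gene. The difference from controls 1 and 2 was 1.01 for Fgf1 and 1.23 for Etv1, while from all 3 controls it was 0.21 and 0.39. Markers of secretory differentiation also moved with the treatment: 7 of 8 rose with array weights and 7 in the 4-array fit, with a mean of 7.09, 5.92 and 7.10 in the controls and 10.02, 9.44 and 10.48 in the TGF-β1 arrays. Of 7 measured nerve markers, 4 rose with array weights and 1 in the 4-array fit, and 0 of 5 immune markers were called in either fit. Of 6 endothelial markers, 0 rose and 1 fell in either fit, namely Kdr. It fell by 1.35 ± 0.19 with array weights (adjusted p = 0.0020) and by 1.40 ± 0.20 in the 4-array fit (adjusted p = 0.0256). The groups of Kdr overlapped through control 3, at 6.23, and unweighted it differed by -0.64 (adjusted p = 0.776). The other endothelial markers differed by -0.07 to 0.33 with array weights. The part of these cell types in the results was not tested.

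**Figure D3:**
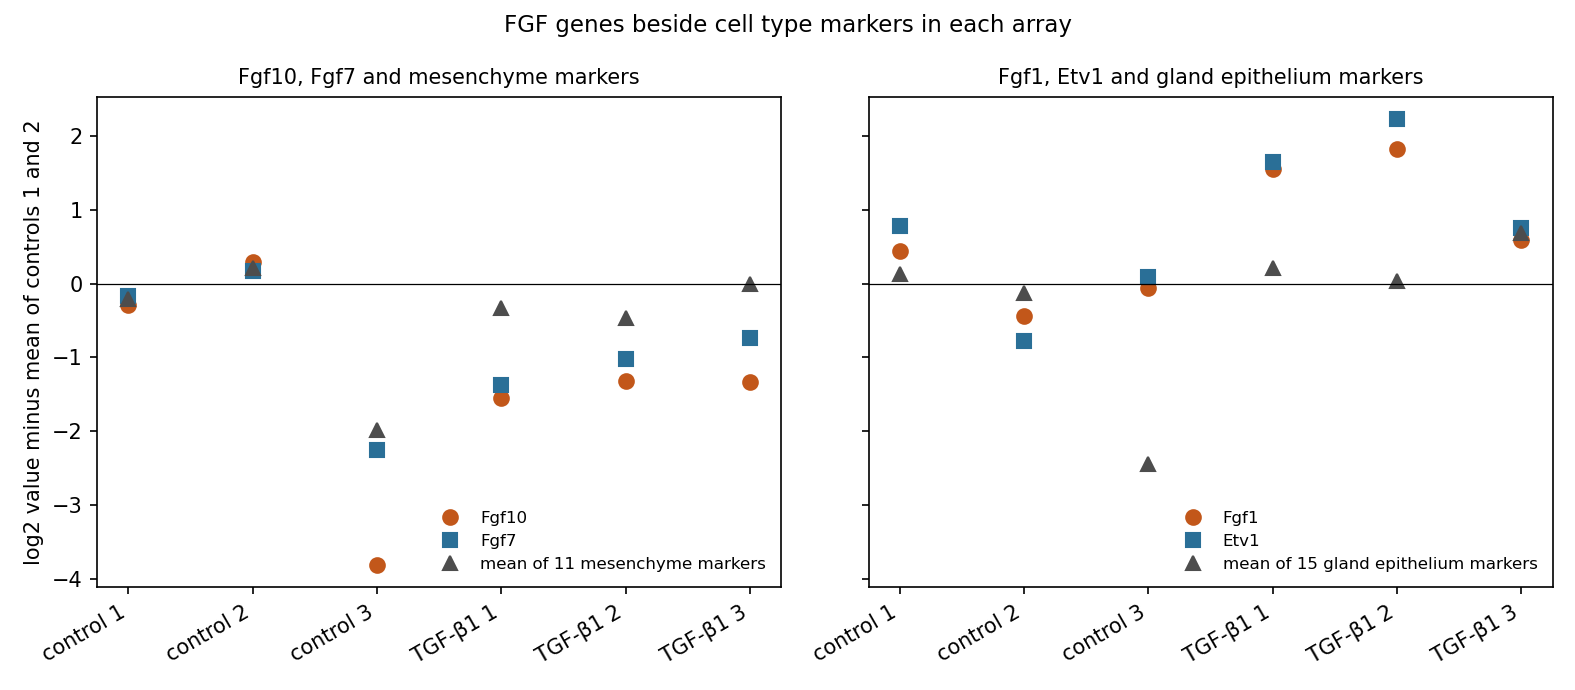
Log2 value relative to the average of controls 1 and 2 (vertical axis) in each array, for Fgf10 and Fgf7 with the mean of 11 mesenchyme markers (left) and for Fgf1 and Etv1 with the mean of 15 gland epithelium markers (right). In the TGF-β1 arrays Fgf10 and Fgf7 lie below the mesenchyme mean, and in TGF-β1 3 Fgf1 and Etv1 lie near the epithelial mean.

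The rest of the pathway was read from 9 further lists with 85 genes, of which 77 were measured. With array weights 5 of these rose and 4 fell, and in the 4-array fit 3 rose and 2 fell. The unweighted fit called 0 in every list. Over all genes, 3.45% were called higher and 3.44% lower with array weights, and 1.14% and 1.45% in the 4-array fit. These shares belong beside the count of each list below. Most of the signalling chain was not called. Of 13 other FGF ligands, 0 were called, and the one of smallest p, the bone-derived hormone Fgf23, differed by -0.50 ± 0.17 (adjusted p = 0.107). The list medians in the array-weighted fit lay between 0.00 and 0.15 for all 9 lists, beside 0.01 over all genes and -0.24 over the 10 members.

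None of the 4 FGF homologous factors, which stay inside cells, was called, and Fgf11 had the smallest p (0.18 ± 0.14, adjusted p = 0.557). Among 4 other receptors and co-receptors Fgfrl1, a receptor without a kinase domain, had the smallest p. It was at 9.68, 9.504 and 7.16 in the controls and at 10.07, 10.06 and 9.91 in the TGF-β1 arrays, so its groups did not overlap, and it differed by 0.52 ± 0.15 with array weights (adjusted p = 0.0668).

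Of 10 proteins that bind FGFs or their receptors, 3 fell with array weights. Flrt2, a membrane protein that interacts with FGF receptors, was at 11.91, 12.12 and 6.46 in the controls and at 10.87, 10.76 and 10.85 in the TGF-β1 arrays. It fell by 1.20 ± 0.22 (adjusted p = 0.0072) and was also called in the 4-array fit (adjusted p = 0.0207). Its relative Flrt3 fell by 1.09 ± 0.22 (adjusted p = 0.0132) and the heparan sulfate proteoglycan Sdc1 by 0.72 ± 0.18 (adjusted p = 0.0326), but neither was called in the 4-array fit (adjusted p = 0.0651 and 0.231).

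Signal transducers were not called: 0 of 11 receptor-proximal adaptors, 0 of 5 measured members of the Ras and MAP kinase cascade and 0 of 10 feedback inhibitors. The genes of smallest p were the adaptor Shc1 (-0.37 ± 0.16), the kinase Braf (-0.45 ± 0.14) and Spry4, a Sprouty inhibitor of receptor tyrosine kinase signalling. Spry4 was at 7.60, 7.90 and 8.52 in the controls and at 7.21, 7.42 and 6.91 in the TGF-β1 arrays. Its groups did not overlap, and it differed by -0.56 ± 0.15 (adjusted p = 0.0513). Dusp6, a phosphatase induced by MAP kinase activity, was at 11.92, 11.75 and 7.19 in the controls and at 11.87, 11.92 and 11.41 in the TGF-β1 arrays, so the 4 arrays without the third replicates spanned 0.17. It was picked after its values were seen.

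Outside the PEA3 group, 3 of 14 other ETS factors rose with array weights and 0 fell. Elf5, a factor of secretory epithelia, was at 7.35, 6.54 and 6.67 in the controls and at 8.91, 9.34 and 7.82 in the TGF-β1 arrays. It rose by 2.24 ± 0.25 (adjusted p = 5.7e-04), and Spdef, a factor of secretory cells, by 1.88 ± 0.17. Ehf, an epithelial factor, rose by 1.71 ± 0.27 and was not called in the 4-array fit (adjusted p = 0.0618), while Elf5 and Spdef were (adjusted p = 0.0207 and 0.0137).

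Among 6 measured genes that depend on FGF in distal epithelium or follow receptor activation, 2 rose and 1 fell with array weights. Sox10, which marks distal and acinar progenitors, was at 8.59, 8.36 and 7.55 in the controls and at 9.45, 9.86 and 8.82 in the TGF-β1 arrays and rose by 1.13 ± 0.18. Sox9, required for distal bud formation, rose by 0.68 ± 0.15 (adjusted p = 0.0203). Egr1, an immediate early gene, was at 12.03, 12.12 and 7.38 in the controls and at 10.996, 11.03 and 9.17 in the TGF-β1 arrays and fell by 1.17 ± 0.27 (adjusted p = 0.0222). In the 4-array fit, Sox10 and Egr1 were also called and Sox9 was not (adjusted p = 0.0683).

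**Figure D4:**
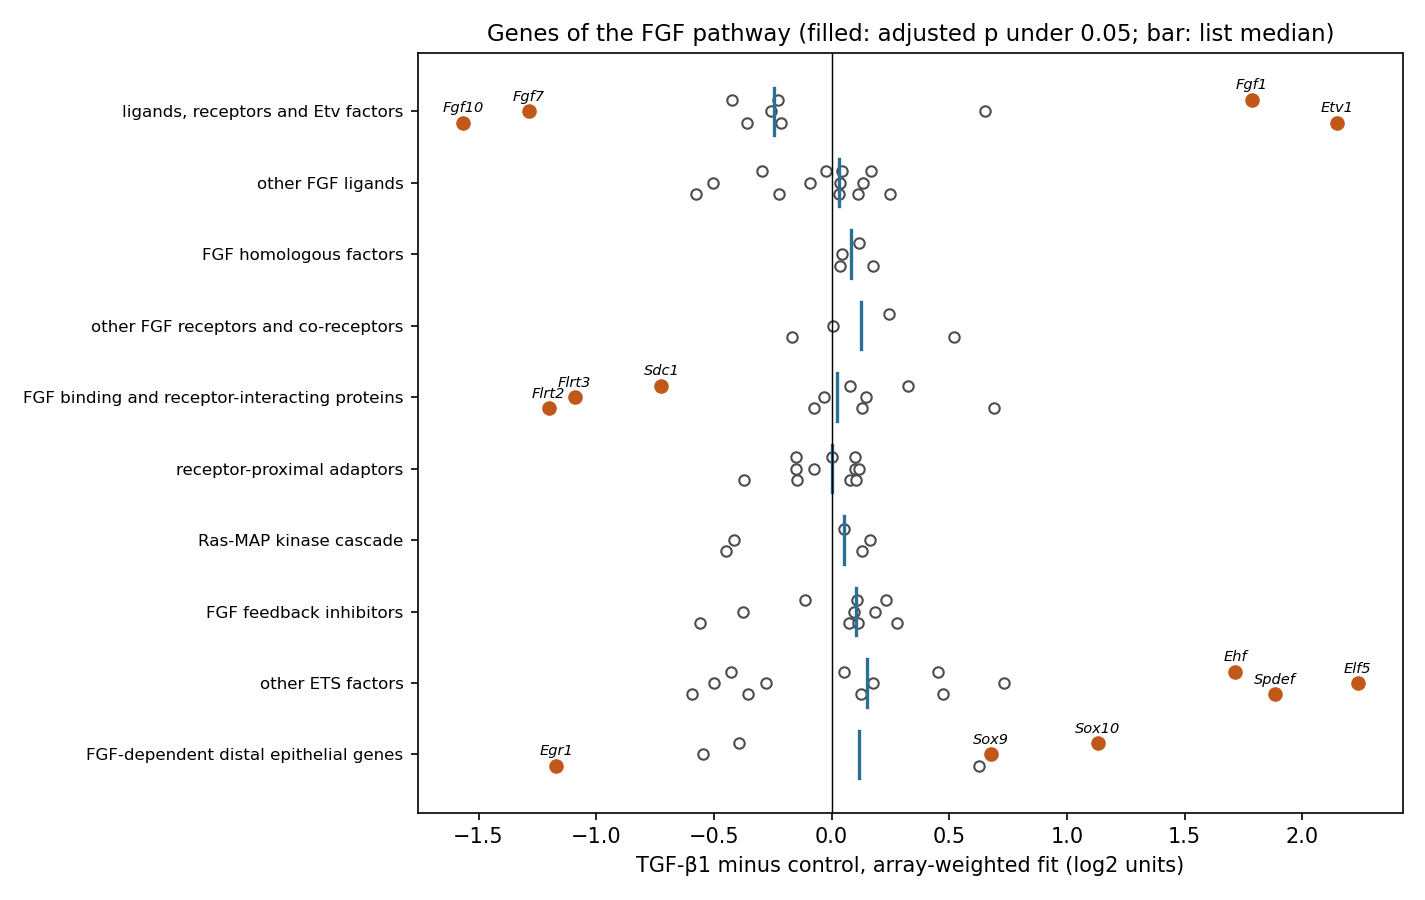
Difference between TGF-β1 and control in the array-weighted fit (log2 units, horizontal axis) for the 10 genes and the 77 measured genes of the 9 further lists, 1 point a gene, filled and named at an adjusted p under 0.05, with a bar at each list's median. Fgf10 and Fgf7 lie at the left end and Etv1, Fgf1 and the ETS factors Elf5, Spdef and Ehf at the right, while the adaptor, kinase and feedback lists hold no filled point.

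The genes whose pattern over the 6 arrays lay nearest to Fgf10, by the root mean square difference after centring each gene on its mean, were Fndc3c1 (0.23 log2 units), Phldb2 (0.24) and Ptges (0.24). For instance Fndc3c1 was at 8.84, 9.45 and 4.86 in the controls and at 7.58, 7.67 and 8.10 in the TGF-β1 arrays. Control 3 was the lowest array for it, as for Fgf10. Nearest to Fgf1 were Chmp4c (0.06), Iqgap2 (0.13) and Hivep3 (0.23), and Chmp4c was at 8.93, 8.10 and 8.47 in the controls and at 9.94, 10.39 and 9.12 in the TGF-β1 arrays. Likeness over 6 arrays from 1 experiment says only that these values ran together.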

How the data were processed

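Log2 expression values per probe set were used as deposited; the authors made them with RMA per the submitters' processing notes, with no version given, from biotin-labelled cRNA of 6 µg total RNA per the labels' protocols. RMA fits 1 value per probe set after background correction and normalization, yet the columns do not share 1 distribution. Of 22206 probe sets, 19572 had 1 gene symbol in the platform annotation, 0 several and 2634 were unnamed here; the probe set with the highest mean stood for a gene, giving 19505 genes. Arrays carry no read depth, so their number limits precision.

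The treated and untreated arrays were set against each other in R 4.3.3 with limma 3.58.1 (lmFit, eBayes, two-sided), unweighted as the main fit, with arrayWeights (REML, up to 5000 iterations, which stopped before its tolerance and whose own error the fit does not carry) and without control 3 and TGF-β1 3. Pathway genes were named as up to 3 per list and direction by size among those called with array weights, or the 1 of smallest p, with Dusp6 added. The members, lists and fits were chosen with earlier results of these data known. Promoter sequences are from RefSeq on GRCm38.p6; the build behind the arrays is not given in the sources used here.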

Additional observations from a re-analysis of the deposited data

How the results depend on the processing

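The unweighted count of 0 called genes was the same with each array left out, quantile normalization, median centring, a filter on dim genes that kept 13003 (9 of the 10), the mean of probe sets, a trended and robust prior, and an adjusted p under 0.01; it was 4 with array weights and 3 in the 4-array fit. The array-weighted count of 4 was 0 to 3 with an array left out, where 0 to 544 of all genes were called. It was 7 with the filter, which added Fgfr1, Fgfr2 and Etv4. That fit tested fewer genes and also re-estimated the array weights, and it called 4349 of the 13003 genes kept. At an adjusted p under 0.01 the count in the 4-array fit was 0. Of the 10 genes, 1 to 6 had non-overlapping groups with an array left out and 2 after quantile normalization. Both settings were chosen after seeing the data. The 6 came without control 3, where 25.2% of all genes did not overlap, against 11.6% over 6 arrays. Shares over all genes were not computed for the other settings. With an array left out the unweighted difference ranged over signs for 6 genes: Fgf7 -1.05 to 0.16, Fgf10 -1.40 to 0.65, Fgfr1 -0.72 to 0.37, Fgfr2 -0.22 to 0.60, Etv4 -0.39 to 0.0044, and Etv5 -0.75 to 1.36. Quantile normalization turned Fgf10 to 0.094 and Fgfr2 to -0.13, median centring turned Fgfr1 to 0.013, and Etv5 was -0.26 with array weights and -0.25 in the 4-array fit. The cause was not tested. Over all genes the median difference was -0.14 unweighted, -0.09 after quantile normalization and 0.01 without control 3.

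No label states that arrays of the same replicate number were paired. Deviations of same-numbered arrays from their group means correlated at -0.07 to -0.01. Control 3 weighs heavily on the control mean, so these correlations cannot show whether pairing was absent. With the replicate number as a block 0 members were called unweighted, 5 with array weights (Fgfr2 added) and 4 in the 4-array fit (Etv1 added). Over all genes the replicate block moved the count of calls from 1342 to 2502 with array weights and from 505 to 969 in the 4-array fit, and the filter on dim genes moved the array-weighted count to 4349. Quantile normalization with array weights called 450 genes and lost Etv1, and a trended and robust prior called 828 genes in the 4-array fit with the same 3 members.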
